A study of Mus musculus with 4 samples.

Results

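The genes described here encode the enzymes that turn squalene into cholesterol, and their probe sets were compared between livers of hepatic reductase null mice and livers of control mice. They were taken as every probe set that the annotation of the array assigns to Sqle, Lss, Cyp51, Msmo1, Nsdhl, Hsd17b7, Ebp, Sc5d or Dhcr7. All 9 genes had at least 1 probe set, which gave 12 probe sets of the 12422 on the array that are not controls. RNA was measured on 4 Affymetrix MG_U74Av2 arrays. They hold 2 null livers, titled N7 and N8, and 2 control livers, titled WT7 and WT8 (replicates 7 and 8 of each genotype). The labels give no allele, strain, sex or age for either genotype, and no treatment. Each experiment used a pool of RNA from 3 animals of a genotype according to the labels, although the control titles speak of a mouse, so the p-values below measure the spread between arrays that may be pools. The labels do not name the reductase. Mice known by this name lack NADPH-cytochrome P450 oxidoreductase (Por) through a Cre recombinase under the albumin promoter, so that hepatocytes lose it and other liver cells keep it, and Por is assumed below. No probe set of the annotation names Por, and its level was not analysed here.

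Cholesterol is built in the endoplasmic reticulum in an early arm from acetyl-CoA through mevalonate to squalene and a later arm from squalene to cholesterol. The later arm uses molecular oxygen at several steps. Squalene monooxygenase (Sqle) and lanosterol demethylase (Cyp51, a cytochrome P450) take their electrons from Por, whereas the methylsterol oxidase Msmo1 and the lathosterol desaturase Sc5d take theirs through cytochrome b5. Most genes of both arms are targets of the transcription factor SREBP2, which is released to the nucleus when membrane sterol is low, and in liver these genes set how much cholesterol is made.

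The 250 bases before the transcription start are shown for the members whose signals separated the genotypes (Lss, Cyp51, Msmo1 and Dhcr7) and, beside Msmo1, for the other cytochrome b5-dependent oxidase Sc5d, which did not separate them. The sequences are from RefSeq on GRCm38.p6, are given 5′ to 3′ on the strand of the gene, and have CCAAT or its reverse complement ATTGG in capitals.
Cyp51 (chr5:4104698-4104947, minus strand): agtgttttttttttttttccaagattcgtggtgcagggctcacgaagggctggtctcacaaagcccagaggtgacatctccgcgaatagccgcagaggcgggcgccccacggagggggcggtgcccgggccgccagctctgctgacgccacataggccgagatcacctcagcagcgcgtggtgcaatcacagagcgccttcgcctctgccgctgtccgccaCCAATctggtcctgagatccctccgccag
Lss (chr10:76531355-76531604, plus strand): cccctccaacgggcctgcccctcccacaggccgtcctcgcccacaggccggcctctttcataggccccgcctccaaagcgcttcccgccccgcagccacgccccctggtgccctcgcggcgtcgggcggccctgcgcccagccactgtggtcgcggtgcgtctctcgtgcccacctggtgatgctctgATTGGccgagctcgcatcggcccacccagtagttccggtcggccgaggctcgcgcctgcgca
Msmo1 (chr8:64733579-64733828, minus strand): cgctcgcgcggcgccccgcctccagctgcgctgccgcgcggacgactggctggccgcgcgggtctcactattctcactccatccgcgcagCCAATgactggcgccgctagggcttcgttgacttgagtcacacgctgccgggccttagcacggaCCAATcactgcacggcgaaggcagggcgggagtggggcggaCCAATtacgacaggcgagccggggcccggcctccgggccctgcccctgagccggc
Dhcr7 (chr7:143829964-143830213, plus strand, one of 3 start sites listed): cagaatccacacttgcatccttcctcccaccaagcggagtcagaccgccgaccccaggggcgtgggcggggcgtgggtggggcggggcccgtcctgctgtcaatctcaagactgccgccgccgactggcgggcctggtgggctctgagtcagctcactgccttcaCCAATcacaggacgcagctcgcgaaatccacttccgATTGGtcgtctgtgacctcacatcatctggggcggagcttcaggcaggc
Sc5d (chr9:42264301-42264550, minus strand): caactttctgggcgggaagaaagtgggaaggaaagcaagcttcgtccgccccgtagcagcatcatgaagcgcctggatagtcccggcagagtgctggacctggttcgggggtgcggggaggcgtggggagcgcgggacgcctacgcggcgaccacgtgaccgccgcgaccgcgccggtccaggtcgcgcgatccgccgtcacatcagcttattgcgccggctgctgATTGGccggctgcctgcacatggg

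Promoter windows from 250 bases before to 50 after a start site were available for 8 of the 9 genes, in 10 windows. CCAAT, on either strand, was in 8 of these 10 windows and in 37.4% of all 32851 windows. The GC box GGGCGG, on either strand, was in 9 of the 10 and in 35.7% of all windows. The sterol element TCACNCCAC, on either strand, was in 0 of the 10, against 1.24% of all windows. Only exact matches were counted, and 10 windows are too few to set 0 apart from 1.24%. Sterol elements that differ from these letters were not searched for, so 0 of 10 does not show that the members lack one. TCACNCCAC is the consensus bound by SREBP proteins, and CCAAT and GGGCGG are those of their usual partners NF-Y and Sp1. The early arm through mevalonate had 8 windows from 7 genes, measured on the array or not. Of these windows 6 held CCAAT, 5 the GC box and 1 the sterol element (Hmgcs1). A match of letters is a description that says nothing of binding, and none of the motifs contains another. Among the members that separated the genotypes Msmo1 had 3 copies of CCAAT, Lss 1, Cyp51 1 and Dhcr7 2, in the printed window alone of its 3 windows. Among the others Nsdhl had 4 copies, Hsd17b7 3, Ebp 2 and Sc5d 1.

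Lss, Cyp51, Msmo1 and Dhcr7 had higher signals on both null arrays than on both control arrays, and the other 5 genes had null and control signals that overlapped. The separated genes differed by 1.33-fold to 1.66-fold, and none of the 9 passed the test across all probe sets. That test was limma on log2 signals with Benjamini-Hochberg adjustment over 7241 probe sets at 0.05, and it called 22 probe sets higher in null liver (0.304%) and 6 lower (0.0829%). All 12 probe sets of the members lay above the filter on dim signals, so each was tested. A gene was represented by its brightest probe set, which gave 5510 genes, of which 0.399% were called in either direction. Both null arrays were above both control arrays for 4 of the 9 members, against 20.9% of these genes, and below for 0 of the 9, against 24%. At an unadjusted p under 0.05 in limma, 4 of the 9 members were higher in null liver, against 6.46% of all genes. The change was positive for 4 of the 9, against 48.5% of all genes. The median log2 change of the 9 members was -0.0037, and that of all tested genes was -0.01. In whole liver, a change in the share of hepatocytes and a change in RNA per hepatocyte cannot be told apart.

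**Figure D1:**
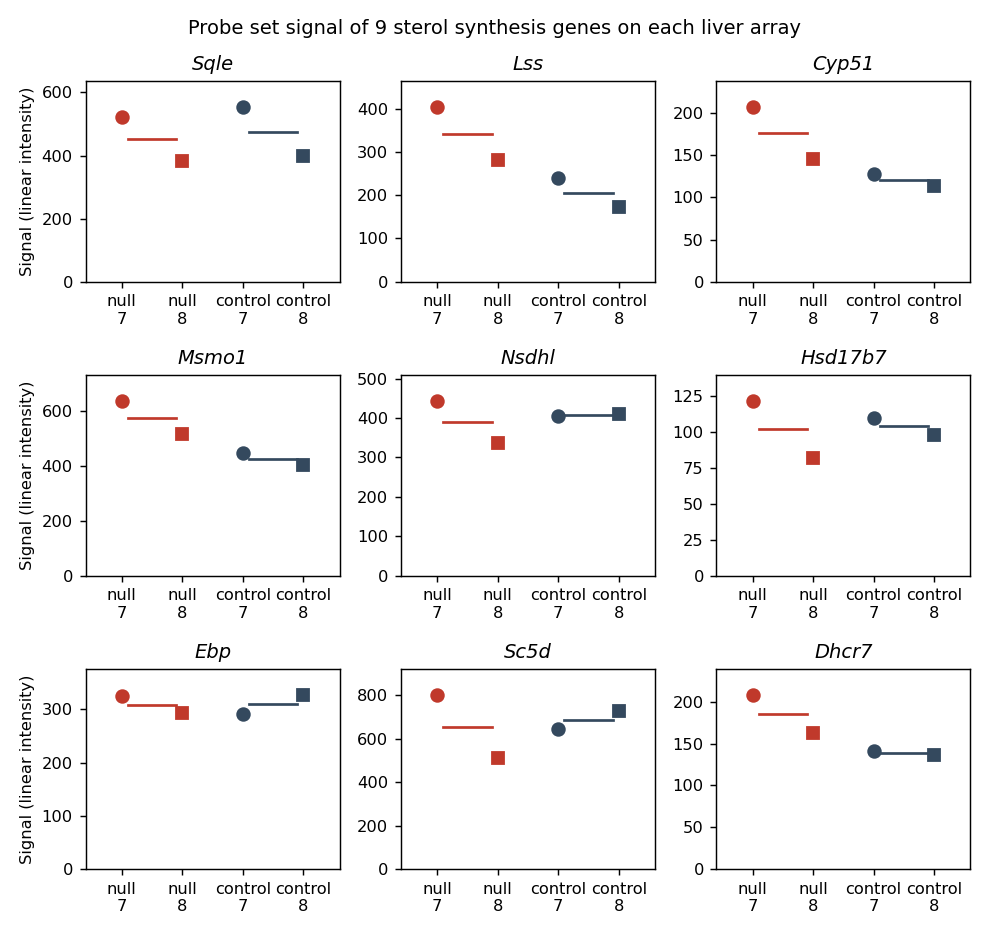
Signal of the brightest probe set of each gene (linear intensity, y axis from 0) on each array (x axis), with null arrays in red left of control arrays in dark blue, replicate 7 as circles and replicate 8 as squares; the short lines are the group means of 2 arrays. Both red points lie above both blue points for Lss, Cyp51, Msmo1 and Dhcr7, and the red circle lies above the red square in all 9 panels.

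Of the enzymes that take electrons from Por, Cyp51 separated the genotypes and Sqle did not. Cyp51, which removes a methyl group from lanosterol, had signals of 206.4 and 144.7 on null replicates 7 and 8, against 127.7 and 113 on control replicates 7 and 8. Both null signals were above both control signals, and the null pair was spread more widely, with an SD of 43.6 against 10.4 in the control pair. The log2 change was 0.52 ± 0.21 (SE), 1.44-fold, with a 95% interval of 0.03 to 1.02 and an adjusted p in limma of 0.359. Sqle, which adds oxygen to squalene at the first step of this arm, had signals of 522.1 and 382.9 on the null arrays, against 553.1 and 397.4 on the control arrays. Replicate 7 was high and replicate 8 low in both genotypes, by 1.36-fold in the null pair and 1.39-fold in the control pair. The log2 change of Sqle was -0.07 ± 0.21 (SE), with an interval of -0.56 to 0.42 (0.68-fold to 1.34-fold).

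The pair of oxidases served by cytochrome b5 likewise gave 1 gene of each kind. Msmo1, which oxidises a methyl group of the demethylated sterol, had signals of 637.1 and 516.4 on the null arrays, against 445.6 and 402.1 on the control arrays. The groups did not overlap, and the log2 change of 0.44 ± 0.14 (SE, 1.36-fold) had an interval of 0.11 to 0.77 and an adjusted p in limma of 0.268. Sc5d, which introduces the double bond made late in the arm, had signals of 802 and 509.7 on the null arrays, against 646.4 and 726.9 on the control arrays. The null arrays held both the highest and the lowest value, and the change was -0.10 ± 0.21 (log2, SE). The other Sc5d probe set was at -0.03 ± 0.16 (log2, SE), with null signals of 415.5 and 318.1 and control signals of 362.4 and 379.5, and repeated the same order of arrays at the top and the bottom. The brightest Sc5d probe set is of a kind (_f_at) that can bind related transcripts.

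Among the cyclase, dehydrogenases, isomerase and reductase of the arm, Lss and Dhcr7 separated the genotypes. Lss, which folds the squalene epoxide into lanosterol, had signals of 403.1 and 281.6 on the null arrays, against 238.6 and 173.6 on the control arrays. Its log2 change of 0.73 ± 0.22 (SE, 1.66-fold) was the largest of the 9 members, with an interval of 0.19 to 1.26 and an adjusted p in limma of 0.259, and 5.17% of all genes had a change at least as high. As with Sqle, replicate 7 was above replicate 8 in both genotypes, by 1.43-fold in the null pair and 1.37-fold in the control pair. Dhcr7, the reductase that makes cholesterol from its last precursor, had signals of 208 and 163.1 on the null arrays, against 140.7 and 136.9 on the control arrays. The null pair was spread (SD 31.7) and the control pair tight (SD 2.69), and the log2 change was 0.41 ± 0.17 (SE, 1.33-fold), with an interval of 0.0033 to 0.81 and an adjusted p in limma of 0.395.

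Nsdhl, Hsd17b7 and Ebp showed overlapping groups. Nsdhl, the dehydrogenase that follows Msmo1, had signals of 443.2 and 336.5 on the null arrays, against 405 and 410.5 on the control arrays, on its brightest probe set. Its log2 change was -0.08 ± 0.15 (SE) there, -0.12 ± 0.17 on the second probe set and 0.14 ± 0.17 on the third, so the probe sets disagreed in sign. The brightest is of a kind (_g_at) that can bind related transcripts. Hsd17b7, the ketosteroid reductase of the same demethylation cycle, had 121.6 and 82.1 on the null arrays, against 109.9 and 97.9 on the control arrays. The null arrays again held the highest and the lowest of the 4 signals, and the change was -0.05 ± 0.23 (log2, SE). Ebp, the isomerase that shifts a ring double bond, had 323.9 and 292.3 on the null arrays, against 291.2 and 326.8 on the control arrays, and its change was -0.0037 with an interval of -0.32 to 0.31 (log2), or 0.80-fold to 1.24-fold.

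**Figure D2:**
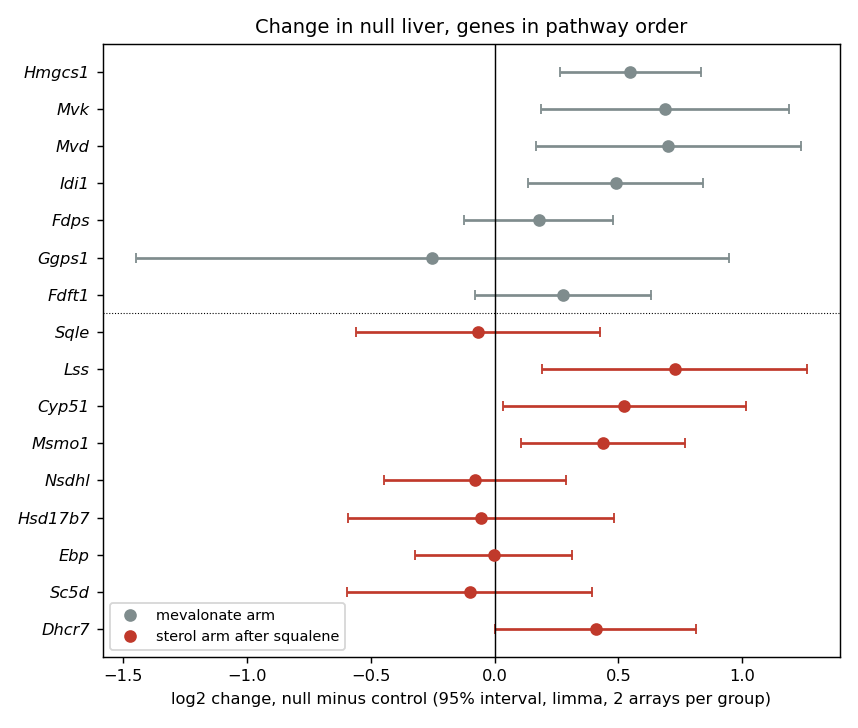
Log2 change of null minus control signals (x axis) for genes of the mevalonate arm (grey, above the dotted line) and of the sterol arm after squalene (red), in pathway order down the y axis; points are limma estimates and bars 95% intervals from 2 arrays per group. Lss stands highest among the red points at 0.73, and Sqle, Nsdhl, Hsd17b7, Ebp and Sc5d lie between -0.10 and -0.0037.

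The size of every member's change depended on which null array was used. Null replicate 7 had a higher signal than null replicate 8 for 9 of the 9 members and for all 12 of their probe sets, against 46.3% of all tested genes. It was the highest of the 4 arrays for 7 of the 9 members, against 21.5% of all genes. The median log2 difference between the null arrays was 0.45 over the 9 members and -0.03 over all genes. In the control pair, replicate 7 was above replicate 8 for 6 of the 9 members, against 48.2% of all genes, with a median difference of 0.15. These comparisons between arrays of 1 genotype have no replicate and were not tested.

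Set against the mean of the control arrays on the log2 scale, all 9 members were higher on null replicate 7, against 47.7% of all genes, and 4 of the 9 on null replicate 8, against 51% of all genes. The 4 genes that separated the genotypes led on both null arrays. Their values above 0 there follow from the way they were singled out, so this is not agreement between replicates. On null replicate 7 Lss was at 0.99, Cyp51 at 0.78, Msmo1 at 0.59 and Dhcr7 at 0.58, and the next was Hsd17b7 at 0.23. On null replicate 8 Lss was at 0.47, Msmo1 at 0.29, Cyp51 at 0.27 and Dhcr7 at 0.23, and the next was Ebp at -0.08. Both sets of differences share the control arrays. Sc5d was lowest on null replicate 8, at -0.43, and at 0.23 on null replicate 7.

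**Figure D3:**
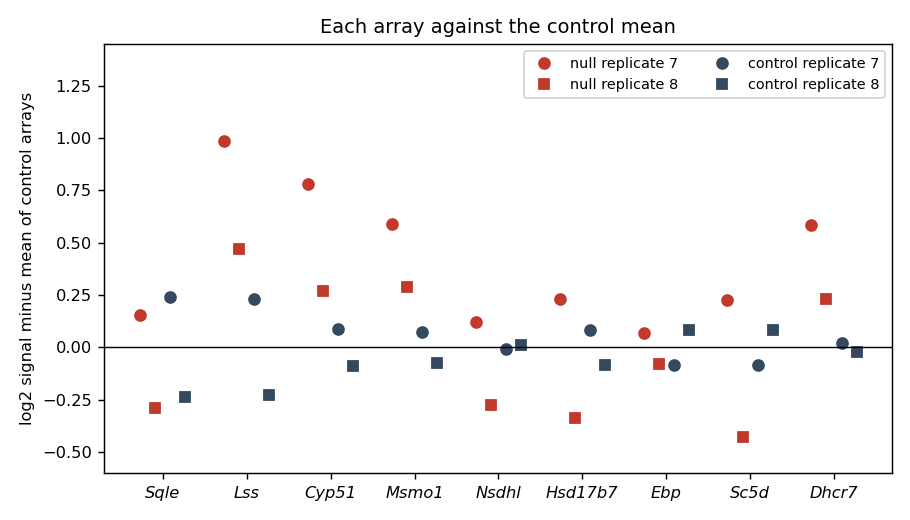
Log2 signal of each array minus the mean of the control arrays (y axis) for each member (x axis), null arrays in red and control arrays in dark blue, circles for replicate 7 and squares for replicate 8. The red circles are above 0 for all 9 genes, and the red squares are above 0 for Lss, Cyp51, Msmo1 and Dhcr7.

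**Figure D4:**
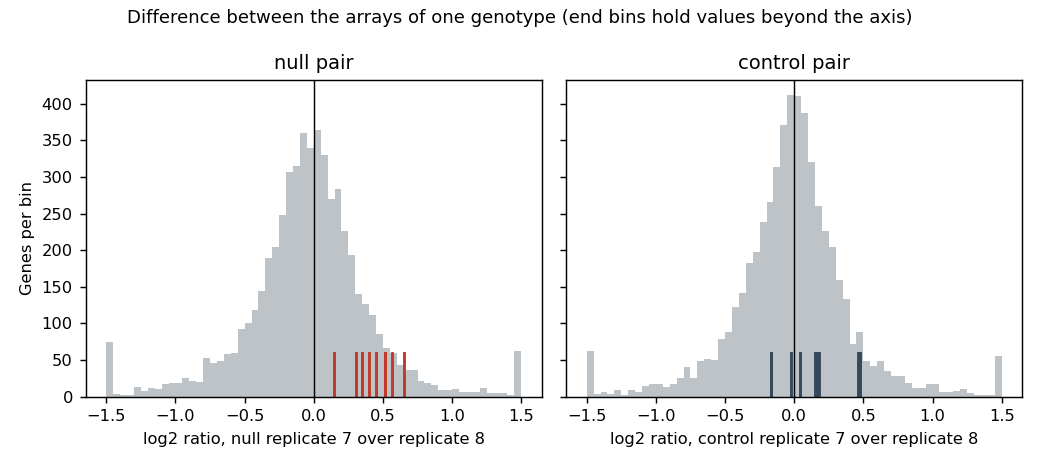
Histograms of the log2 ratio of replicate 7 over replicate 8 for 5510 tested genes (grey, genes per bin) in the null pair (left) and the control pair (right), with coloured lines for the 9 members. All 9 members lie to the right of 0 in the null pair, and 6 of the 9 do in the control pair.

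Null replicate 7 also carried pancreatic acinar transcripts, which liver should lack. All 7 acinar markers with a probe set were highest on that array, with summed signals of 3031.8 on null replicate 7 and 241.1 on null replicate 8, against 274.4 and 388.3 on the control arrays. Prss2, a trypsinogen, was at 521.7 on null replicate 7 and at 4.7 on null replicate 8, against 2.3 and 9.3 on the control arrays, and no acinar marker was at or below the background floor on every array. The part of this tissue in the members' signals was not tested. Without null replicate 7 the log2 changes were 0.47 for Lss, 0.29 for Msmo1, 0.27 for Cyp51 and 0.23 for Dhcr7, against 0.73, 0.44, 0.52 and 0.41 with all arrays, and 0 of the 9 members passed in limma. These genes stay positive there by the way they were singled out, since both null signals lie above both control signals. All acinar markers, namely Ctrb1, Cela1, Cela2a, Prss2, Cel, Clps and Pnliprp1, differed over 4-fold within a genotype, as did Pecam1, Krt19, S100a9 and Mpo of the lists below. These ratios are of signals before the floor of 7.1, and Pnliprp1, Krt19, S100a9 and Mpo lay below the filter. Krt19, at 1 and 18.8 on the control arrays, and Mpo, at 2.6 and 11.6 on the null arrays, passed 4-fold only through signals below that floor. Pecam1, of endothelial cells, was at 33 and 4.1 on the null arrays, against 19.4 and 28.3 on the control arrays. The marker counts that follow are to be read against the 20.9% of all tested genes with both null arrays above and the 24% with both below the control arrays. Macrophage markers were higher on both null arrays for 9 of 12 genes, with summed signals of 3336.3 and 3590.1 on the null arrays, against 2656.6 and 2635.8 on the control arrays, and stellate cell and fibroblast markers for 4 of 8. Mpeg1, a macrophage gene, was the 1 marker called, with 361.4 and 377.9 on the null arrays, against 150 and 134.3 on the control arrays (2.60-fold, adjusted p in limma of 0.021). Hepatocyte markers were lower on both null arrays for 5 of 7 genes, with summed signals of 35712.4 and 33670 on the null arrays, against 37283.1 and 36406.2 on the control arrays, which shows the labelled tissue on all 4 arrays. Endothelial markers were higher on both null arrays for 2 of 6 genes and lower for 1 of 6 (Tek), and neutrophil markers were higher for 3 of 6. These counts include genes below the filter. Among tested genes alone, 2 of 5 endothelial markers were higher and 1 of 5 lower, and 2 of 3 neutrophil markers were higher. The 3 measured cholangiocyte markers lay below the filter, and Epcam, like the neutrophil gene Ngp, was at or below the floor on every array. The part of these markers in the members' signals was not tested.

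Most measured genes of the arm before squalene had null signals above the control signals. Of 7 measured genes of the mevalonate arm, 0 passed in limma, 6 had a positive and 1 a negative change, and 5 had both null arrays above both control arrays, against 20.9% of all genes. Their median log2 change was 0.49, against -0.0037 for the 9 members, and the difference between the arms was not tested. Without null replicate 7 the median of the mevalonate arm was 0.27. Mvd, which makes isopentenyl diphosphate, had 115.6 and 82.1 on the null arrays, against 63.2 and 56.7 on the control arrays, a log2 change of 0.70 ± 0.22 (SE). Hmgcs1, a synthase early in the arm, had 751.5 and 759.1 on the null arrays, against 562.6 and 474.2 on the control arrays, and unlike the members was not higher on null replicate 7. Mvk, mevalonate kinase, likewise had its higher null signal on replicate 8 on its brightest probe set, with 134.9 and 190.3 on the null arrays, against 92.3 and 107.1 on the control arrays, a log2 change of 0.69 ± 0.21 (SE). The other Mvk probe set had the opposite order, with 42 and 39.2 on the null arrays, against 38.9 and 35 on the control arrays, and a log2 change of 0.14 ± 0.25 (SE). Idi1, the isopentenyl isomerase, had 1754.6 and 1296.7 on the null arrays, against 1120.5 and 1029.1 on the control arrays. Fdps and Fdft1, which close the arm at farnesyl diphosphate and squalene, were at 0.18 ± 0.13 and 0.28 ± 0.15 (log2, SE), and Ggps1, of the branch to geranylgeranyl diphosphate, was dim and at -0.25 ± 0.50.

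Other steps after squalene did not separate the genotypes. Tm7sf2 and Lbr, a pair of sterol reductases acting after Cyp51, were at -0.27 ± 0.18 and 0.08 ± 0.25, and Erg28, a scaffold of the demethylation complex in yeast, was at 0.16 ± 0.21 (log2, SE). All of these had a higher signal on null replicate 7 than on null replicate 8, as the members did. On their brightest probe sets, the electron partners of the pathway differed by little. Cyb5a, the microsomal cytochrome b5, had 2698.3 and 2847.3 on the null arrays, against 2605.4 and 2546.6 on the control arrays, a log2 change of 0.11 ± 0.07 (SE). Cyb5r3, which reduces it from NADH, was at -0.05 ± 0.08, and Pgrmc1, a haem protein that binds Cyp51, was at 0.13 ± 0.08. Cyb5b, the outer mitochondrial form, was at -0.20 ± 0.10 on its brightest probe set and at 0.55 ± 0.21 on the other. On that other probe set both null signals were above both control signals. On the brightest probe sets 0 of these 4 genes passed in limma. Both null signals were above the control signals for 2 of them, against 20.9% of all genes, and below for 2, against 24%.

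Of 12 genes of sterol sensing and uptake, 4 had a probe set and 3 were tested, of which 0 passed. Srebf1, the regulator of fatty acid synthesis, had 603.7 and 497.4 on the null arrays, against 1135.5 and 967 on the control arrays, a log2 change of -0.94 ± 0.14 (SE) with an adjusted p in limma of 0.0551. Mbtps1, the protease that makes the first cut of SREBP proteins, was at -0.12 ± 0.14, and Nr1h3, the oxysterol receptor LXR-alpha, was at -0.05 ± 0.14. Insig1, which holds SREBP in the endoplasmic reticulum, was too dim to test, with signals of 6.5 and 12.5 on the null arrays, against 4.8 and 1.4 on the control arrays.

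The genes outside these lists with the pattern most like that of Sqle over the 4 arrays were Gas5, Arhgap35 and Krt72, by root mean square distance between centred log2 signals (0.019, 0.042 and 0.057) among 2170 genes at least as variable. Each was higher on replicate 7 than on replicate 8 in both genotypes, with Gas5 at 453.2 and 320.3 on the null arrays, against 470.8 and 340.6 on the control arrays. Those most like Cyp51 were Vwf, Icam2 and C1qbp (0.040, 0.045 and 0.058) among 1238 genes. Vwf was at 47.8 and 34.8 on the null arrays, against 28.5 and 25.7 on the control arrays. With 4 arrays such likeness is a description only.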

How the data were processed

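Livers of 2 null and 2 control samples were measured on MG_U74Av2 arrays. The authors deposited 1 linear signal intensity per probe set from GCOS software (version not given in the sources), and the labels say that arrays were scaled by their total fluorescence. The number of arrays limits the precision. The log2 signals of the arrays of a genotype differed with an SD of 0.55 (null) and 0.47 (control), so none was a copy.

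Of 12488 probe sets, 66 manufacturer's controls were left out. Signals were floored at 7.1 (25th percentile of all signals), taken to log2 and not normalised again. Probe sets with a mean above log2 of 16.8 (40th percentile) were tested with limma 3.58.1 in R 4.3.3 (intensity trend, genotype as the only term, two-sided). The variance prior carried 4.78 degrees of freedom and the arrays 2. With 2 arrays per group the smallest exact two-sided permutation p is 0.333, so none was used. Symbols came from the platform's table, updated to GRCm38.p6, with 1 symbol for 10833 probe sets, several for 396 and none for 1193.

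The members and gene lists were chosen with earlier results of these data known. Named genes were the members, the measured genes of the fixed pathway lists, the 3 nearest patterns to Sqle and Cyp51, and markers differing over 4-fold within a genotype. Mpeg1, Tek, Epcam and Ngp were named after their values were seen. On simulated data for null against control (7241 probe sets, 20 draws), 6.9% of 1.5-fold, 32.1% of 2-fold and 70.2% of 4-fold changes were recovered, and 5% of calls were false. Alternatives covered arrays left out, a replicate block, floor, filter, normalisation, trend and probe set.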

Additional observations from a re-analysis of the deposited data

How the results depend on the processing

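In limma, 0 of the 9 members passed in the fit or in any of the 12 alternative fits, with a smallest adjusted p of 0.0969 under the replicate block (0.259 in the fit). At an unadjusted p under 0.05, 4 of the 9 passed in the fit. Leaving out 1 array cannot turn the sign of Lss, Cyp51, Msmo1 or Dhcr7, whose null and control signals do not overlap, and gave ranges of 0.47 to 0.99 for Lss, 0.27 to 0.78 for Cyp51, 0.29 to 0.59 for Msmo1 and 0.23 to 0.58 for Dhcr7 (log2). The other members turned sign, with ranges of -0.31 to 0.17 for Sqle, -0.43 to 0.23 for Sc5d, -0.28 to 0.12 for Nsdhl, -0.34 to 0.23 for Hsd17b7 and -0.087 to 0.079 for Ebp. Quantile normalisation gave 0.018 for Ebp, and another Nsdhl probe set gave 0.14. The members' median ranged over -0.078 to 0.23 and was highest without null replicate 8, and that of the mevalonate arm over 0.27 to 0.55. The medians of the other lists were rerun as alternatives chosen after seeing the data.

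Over all probe sets, fits without 1 of the arrays had between 10 and 13 higher calls and between 0 and 4 lower calls, against 22 and 6 with all arrays. Quantile normalisation gave 12 lower calls. The floor at the 50th percentile gave 0 higher and 1 lower in limma, with 892 at an unadjusted p under 0.05, no filter on dim probe sets gave 0 and 0 with 1208, and no intensity trend gave 0 and 0 with 747. The replicate block gave 37 higher and 15 lower. The labels do not say that the numbers 7 and 8 pair the arrays, and the 7 minus 8 differences of the genotypes correlated at -0.03 over probe sets. The fits with no filter and with the higher floor each covered 12422 probe sets, against 7241 in the main fit. The causes of these shifts were not tested. The members' lowest signal was 82.1, against a floor of 7.1, so the floor did not touch their values.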

Other observations

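Genes of sterol storage and export were described beside the synthesis genes. Of 6 measured genes 0 passed in limma, with 3 positive and 3 negative changes and a median log2 change of 0.011. Lcat, which esterifies plasma cholesterol, had signals of 1157.3 and 1225.1 on the null arrays, against 1369.2 and 1455.8 on the control arrays, a log2 change of -0.25 ± 0.09 (SE) with an adjusted p in limma of 0.329. Abcg1, a sterol exporter, had 102.8 and 106.4 on the null arrays, against 91.1 and 73.5 on the control arrays. Abca1, the exporter that loads apolipoprotein A-I, was at -0.26 ± 0.19 on its brightest probe set and at 0.88 ± 0.32 on the other (log2, SE). Scarb1, the HDL receptor, was at -0.09 ± 0.11, and Npc1 and Npc2, which release sterol from lysosomes, were at 0.11 ± 0.11 and 0.17 ± 0.15 (log2, SE).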
